A study of Mus musculus with 8 samples.

Results

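Urea cycle and amino acid catabolism genes are a list of 41 liver enzymes, compared here between wild type mice and Tm6sf2 E167K knock-in mice. The list was taken by gene name, but it was chosen with earlier results of these data known. Only probe sets with exactly 1 gene symbol in the platform annotation were considered, and where a gene had several, the brightest one on average over all 8 arrays stood for it. Such a probe set was found for 38 of the 41 genes, against 22180 genes in the series as a whole. All 38 lay above the limit for dim genes described below and were tested together with the other genes, 13449 in all. The remaining 3, the glutaminase Gls2 and the serine dehydratases Sds and Sdsl, were not analysed here.

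RNA came from livers of male C57BL/6J mice, 4 samples labelled wild type (littermates of the knock-in line, per the labels) and 4 labelled as the Tm6sf2 E167K knock-in, with 400 ng of total RNA labelled for each Affymetrix whole-transcript array. The diet is not settled: the series description gives a high-fat diet for 20 weeks, while the notes on the samples name 14 weeks of either chow or a fat-free diet high in sucrose. The labels state neither the age of the mice nor whether 1 or both alleles carry the variant. Because the knock-in changes the coding sequence, the level of Tm6sf2 does not check the labels, and it averaged 9.72 ± 0.22 over the wild type and 9.66 ± 0.27 over the knock-in arrays (SD, n = 4 per genotype; difference -0.06, SE 0.16). The values are log2 expression after normalization by the authors, with array medians between 3.73 and 3.80 and a highest value of 13.66. On arrays the number of samples limits the precision, and a probe set's level is read only against the same probe set on other arrays.

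The liver takes up amino acids that arrive from the gut and from muscle. Transaminases and dehydrogenases remove the amino group, glutamate and aspartate carry the nitrogen to the urea cycle, and the carbon skeletons enter glucose synthesis, ketone body formation or the citric acid cycle. Histidine, tyrosine, tryptophan, methionine and proline each have a dedicated chain of enzymes in hepatocytes, while branched-chain amino acids are transaminated mainly outside the liver and their keto acids are oxidized in liver mitochondria.

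By limma with Benjamini-Hochberg adjustment over all 13449 genes, 0 of the 38 members passed the threshold of adjusted p under 0.05, where 0.0669% of all tested genes did. The smallest adjusted p values belonged to Gpt, the cytosolic alanine transaminase, at 0.0849, and to Prodh, the mitochondrial proline dehydrogenase, at 0.113. An unadjusted p under 0.05 limits the error for a single gene but not the false calls over many genes. At that threshold 6 members were higher in the knock-in (Gpt, Prodh, Shmt1, Uroc1, Haao and Bckdha), or 15.8% of the list against a background of 6.01%. Only Kynu was lower at that level, 2.63% of the list against 5.29%. In 8 members all 4 knock-in arrays lay above all 4 wild type arrays (21.1% of the list, background 3.96%), and in 0 members did they all lie below (background 3.2%). The difference was above 0 for 26 of the 38 members, 68.4% against 51.1% of all tested genes. The median difference was 0.08 on the log2 scale, and that of all tested genes was 0.0046. These counts moved with single arrays and with the model. Without wild type replicate 4, 4 members had an unadjusted p under 0.05 (10.5%, where all genes gave 10.3%). With a trended and robust prior 16 did (42.1% against 12.2%). Without knock-in replicate 4, the groups of 14 of the 38 members did not overlap, 10 of them higher. Of all genes, 12.1% then did not overlap in either direction, against 7.16% with all 8 arrays. Fewer arrays make a separation easier for every gene. With the stricter filter on dim genes, 10 members had an unadjusted p under 0.05 (27.0%, where all genes gave 14.1%). Under that filter the groups of 8 members did not overlap, where 8.55% of all genes did not. The median SE was 0.09 for the members and 0.13 for all tested genes, and its part in these shares was not tested. In bulk liver, a different number of cells of a type and a different amount of RNA per cell cannot be told apart.

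**Figure D1:**
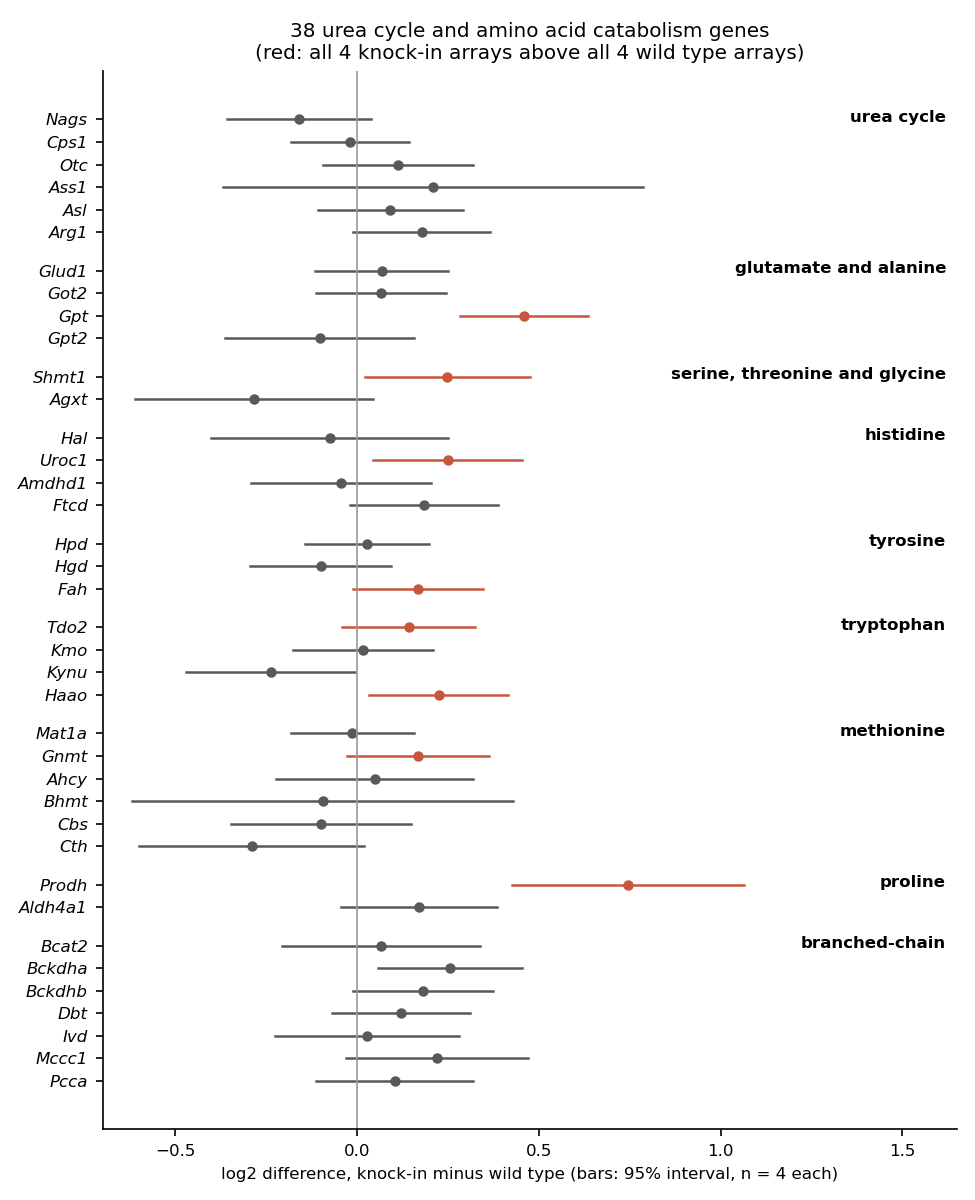
Log2 difference between knock-in and wild type for each of the 38 tested members, grouped by pathway, with 95% intervals from limma (n = 4 arrays each); red marks the 8 genes whose groups do not overlap. Prodh at 0.75 and Gpt at 0.46 lie farthest to the right, and all 7 branched-chain genes lie right of 0.

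In the urea cycle, which joins ammonia and aspartate nitrogen into urea, the groups of every gene overlapped. Of its 6 members, 4 lay above 0 and 2 below, and 0 had an unadjusted p under 0.05. Nags, which makes the activator of the first step, lay at -0.16 (SE 0.09), with 9.07 ± 0.11 on wild type and 8.91 ± 0.08 on knock-in arrays. Its other probe set was at -0.06 (SE 0.13, from a fit over all probe sets). Cps1, the entry enzyme that fixes ammonia, read 13.14 ± 0.03 and 13.12 ± 0.04, and its difference had a 95% interval of -0.18 to 0.14. It lay close to the highest value on the arrays. Otc, which joins carbamoyl phosphate to ornithine, was at 0.11 (SE 0.09), and Asl, which releases arginine, at 0.09 (SE 0.09).

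Arg1, the arginase that releases urea, came closest to a separation within the cycle. Wild type arrays read 12.34, 12.17, 12.11 and 12.09, and knock-in arrays 12.36, 12.33, 12.40 and 12.34. Only wild type replicate 1 reached into the narrow knock-in range, and the difference was 0.18 (SE 0.08, limma adjusted p = 0.461). Ass1, which joins citrulline to aspartate, had the widest spread of the cycle and the lowest readings, 7.06 ± 0.51 on wild type arrays. Whether its probe set reports the main transcript was not tested. Its wild type arrays read 6.43, 7.20, 6.95 and 7.66, and its knock-in arrays 7.72, 7.13, 7.23 and 6.998. The groups overlapped, the 95% interval ran from -0.37 to 0.79, and without wild type replicate 1 the difference was -0.0017.

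Among the enzymes that move nitrogen between glutamate and alanine, Gpt was the one whose groups lay apart. Gpt, which turns alanine into pyruvate, read 9.30, 9.36, 9.49 and 9.35 in wild type and 9.87, 9.79, 9.87 and 9.82 in knock-in liver. The 2 groups were each tight, with a gap of 0.30 between the highest wild type and the lowest knock-in array. The difference was 0.46 (SE 0.08, 95% interval 0.28 to 0.63), or 1.37-fold, with limma adjusted p = 0.0849. Gpt2, the mitochondrial enzyme for the same reaction, lay at -0.10 (SE 0.12), with 11.62 ± 0.19 and 11.52 ± 0.12. Whether the 2 differences differ from each other was not tested. Glud1, the glutamate dehydrogenase that frees ammonia, was at 0.07 (SE 0.08). Got2, the mitochondrial aspartate transaminase, was also at 0.07 (SE 0.08), and its other probe set at 0.24 (SE 0.12, from a fit over all probe sets).

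The call for Gpt differed between settings. Its adjusted p was 0.0356 with the stricter filter on dim genes and 0.0140 with a trended and robust prior, and over all 15 alternatives it ran from 0.0140 to 0.280. The difference itself stayed between 0.43 and 0.50.

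In proline breakdown, Prodh had the largest difference of the whole list. This enzyme starts the oxidation of proline at the inner mitochondrial membrane. Wild type arrays read 9.32, 9.23, 8.82 and 8.73, and knock-in arrays 9.86, 9.71, 9.73 and 9.79. The wild type values were the more scattered, and the lowest knock-in array lay 0.39 above the highest of them. The difference was 0.75 (SE 0.14, 95% interval 0.43 to 1.06), or 1.68-fold, with limma adjusted p = 0.113. Under the alternatives the adjusted p ran from 0.0272, with the trended and robust prior, to 0.266, without knock-in replicate 3. Aldh4a1, which completes the conversion to glutamate, was at 0.17 (SE 0.09), with 9.17 ± 0.13 and 9.34 ± 0.09 and overlapping groups.

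**Figure D2:**
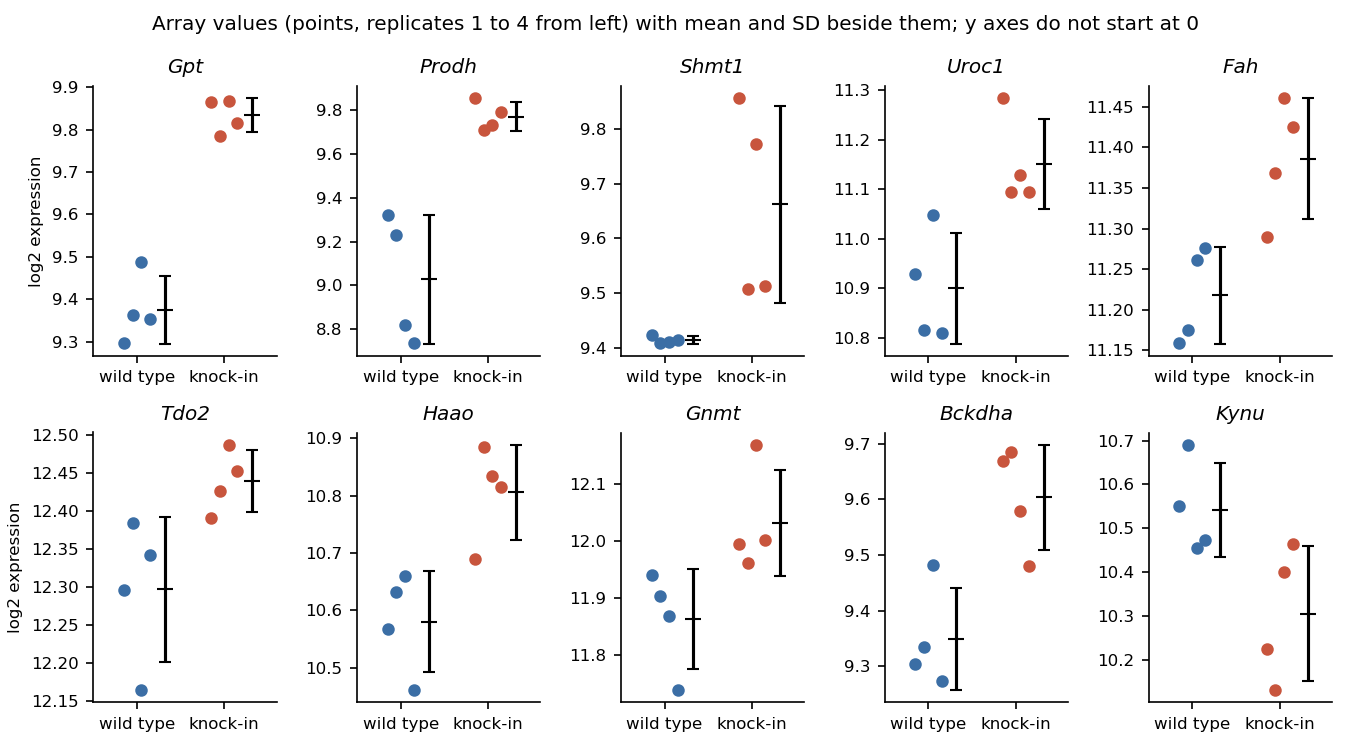
Log2 expression on each array (points, replicates 1 to 4 from left) with mean and SD beside them, for the 8 members whose groups do not overlap and for Bckdha and Kynu. Gpt and Prodh show a wide gap between genotypes, Tdo2 and Fah a gap of only 0.0067 and 0.0140, and the wild type values of Shmt1 lie within 9.41 to 9.42.

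The serine and glycine members lay on opposite sides of 0. Shmt1, the cytosolic enzyme that passes a carbon from serine to folate, read 9.42, 9.41, 9.41 and 9.41 in wild type and 9.86, 9.51, 9.77 and 9.51 in knock-in liver. The wild type arrays were nearly identical, and every knock-in array lay above them, replicates 1 and 3 the farthest. The difference was 0.25 (SE 0.10, limma adjusted p = 0.385). Agxt, the transaminase that detoxifies glyoxylate, read 10.85 ± 0.29 and 10.57 ± 0.12, a difference of -0.28 (SE 0.14, limma adjusted p = 0.507), and its groups overlapped.

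Histidine is broken down to glutamate by Hal, Uroc1, Amdhd1 and Ftcd in that order, and 2 of these 4 lay above 0. Uroc1, the urocanase, read 10.93, 10.82, 11.05 and 10.81 in wild type and 11.28, 11.10, 11.13 and 11.09 in knock-in liver. Its groups did not overlap, by a gap of 0.05, and the difference was 0.25 (SE 0.09, limma adjusted p = 0.340). Ftcd, which hands the last carbon to folate, was at 0.18 (SE 0.09), with wild type replicate 3 above knock-in replicate 1. Hal, the entry enzyme, was at -0.08 (SE 0.14) and Amdhd1 at -0.04 (SE 0.11). In both, knock-in replicate 2 was the lowest and knock-in replicate 4 the highest of all 8 arrays, and without knock-in replicate 2 their differences were 0.034 and 0.033.

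Tyrosine breakdown ends in fumarate and acetoacetate. Fah, the last enzyme, read 11.16, 11.17, 11.26 and 11.28 in wild type and 11.29, 11.37, 11.46 and 11.43 in knock-in liver. The groups met without overlapping, and the difference was 0.17 (SE 0.08, limma adjusted p = 0.461). The upstream enzymes Hpd, which makes homogentisate, and Hgd, which opens its ring, were at 0.03 (SE 0.08) and -0.10 (SE 0.09).

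In the kynurenine pathway of tryptophan, the first and the last member had knock-in arrays above all wild type arrays. Tdo2, the dioxygenase that opens the indole ring, read 12.30, 12.38, 12.16 and 12.34 in wild type and 12.39, 12.43, 12.49 and 12.45 in knock-in liver, a difference of 0.14 (SE 0.08, limma adjusted p = 0.551). Haao, which makes the precursor of quinolinate, read 10.57, 10.63, 10.66 and 10.46 in wild type and 10.69, 10.88, 10.83 and 10.81 in knock-in liver. Neither gene's groups overlapped, and for Haao the difference was 0.22 (SE 0.08, limma adjusted p = 0.358). Kynu, the kynureninase that acts just before Haao, read 10.55, 10.69, 10.45 and 10.47 against 10.22, 10.13, 10.40 and 10.46. Knock-in replicate 4 lay within the wild type range, and the difference was -0.24 (SE 0.10, limma adjusted p = 0.430). Kmo, the hydroxylase between Tdo2 and Kynu, was at 0.02 (SE 0.09).

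Methionine is activated to S-adenosylmethionine, spent in methylation and returned to methionine or passed on to cysteine. Here 2 of 6 members lay above 0 and 4 below, and the median was -0.05. Gnmt, which disposes of excess methyl groups on glycine, read 11.94, 11.90, 11.87 and 11.74 in wild type and 11.995, 11.96, 12.17 and 12.00 in knock-in liver. All knock-in arrays lay above the wild type arrays, by a gap of 0.02 and a difference of 0.17 (SE 0.09, limma adjusted p = 0.507). Cth, which releases cysteine, read 12.40, 12.67, 12.42 and 12.46 against 12.05, 11.95, 12.26 and 12.54. Knock-in replicates 1, 2 and 3 lay below every wild type array and knock-in replicate 4 did not, with a difference of -0.29 (SE 0.14, limma adjusted p = 0.464). Cbs, the enzyme before it, was at -0.10 (SE 0.11).

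The intervals of the other methionine genes included 0, and the sign of each changed between fits. Mat1a, which makes S-adenosylmethionine in hepatocytes, had 13.40 ± 0.06 and 13.39 ± 0.04, near the top of the scale, and an interval of -0.18 to 0.16. Ahcy, which clears S-adenosylhomocysteine, was at 0.05 (SE 0.12) by the probe set used and at -0.10 (SE 0.13, from a fit over all probe sets) by its other one. The probe set for Bhmt, which returns homocysteine to methionine, read only 4.33 ± 0.43 and 4.24 ± 0.32, where the dim limit was 3.46 to 3.50, and its interval of -0.62 to 0.43 is wide.

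In branched-chain catabolism every tested member lay above 0, as both proline genes did. The 7 differences ran from 0.03 to 0.26 with a median of 0.12. Bckdha, the catalytic alpha subunit of the mitochondrial keto acid dehydrogenase, read 9.30, 9.34, 9.48 and 9.27 in wild type and 9.67, 9.69, 9.58 and 9.48 in knock-in liver. Knock-in replicate 4 touched wild type replicate 3, and the difference was 0.26 (SE 0.09, limma adjusted p = 0.325). The beta subunit Bckdhb was at 0.18 (SE 0.09) and the transacylase core Dbt at 0.12 (SE 0.08), so the 3 subunits lay on the same side, and 0 of them passed the threshold.

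Of the steps around this complex, Mccc1, a subunit of the biotin enzyme of leucine breakdown, was at 0.22 (SE 0.11), and Pcca, a subunit of propionyl-CoA carboxylase, at 0.10 (SE 0.10). Bcat2, the transaminase that starts the pathway mostly outside hepatocytes, was at 0.07 (SE 0.12) and took its sign from wild type replicate 4, which read 6.42 where the others read 6.85 to 6.93; without that array the difference was -0.05. The leucine enzyme Ivd, isovaleryl-CoA dehydrogenase, was at 0.03 (SE 0.11) and lay below 0 in 4 of the 8 fits that left out an array.

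**Figure D3:**
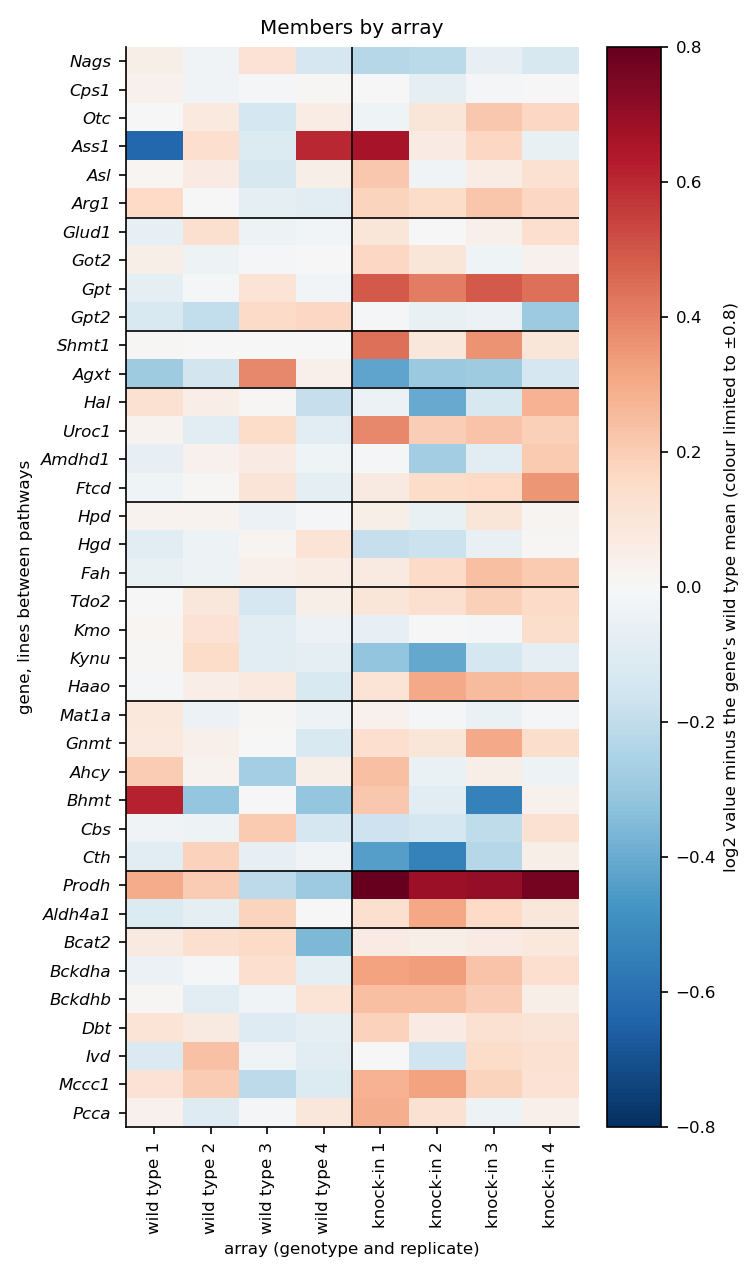
Log2 value of each member on each array minus the gene's wild type mean, members in rows and arrays in columns. The knock-in columns are evenly red for Gpt and Prodh, while Ass1 and Bhmt vary within both genotypes.

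Averaged over the tested members of a pathway, the arrays separated by genotype in 3 of the 9 pathways. Relative to the wild type mean, the proline genes averaged -0.15 to 0.09 on wild type and 0.43 to 0.49 on knock-in arrays, mostly through Prodh. The branched-chain genes averaged -0.07 to 0.06 and 0.09 to 0.20. For glutamate and alanine genes the averages were -0.05 to 0.05 and 0.08 to 0.18, with Gpt contributing most. In the urea cycle they were -0.06 to 0.08 and -0.00043 to 0.13, and in methionine metabolism -0.10 to 0.14 and -0.12 to 0.05, both overlapping. The methionine value of 0.14 was that of wild type replicate 1. On that array the low-reading probe set of Bhmt stood at 4.95, against a wild type mean of 4.33. The average over all 38 members also separated, narrowly, at -0.03 to 0.019 and 0.028 to 0.11. So did that over the 112 further tested genes described below, at -0.02 to 0.02 and 0.04 to 0.08. Among those further genes, the proline list and the glutamate and alanine list overlapped, and the branched-chain list did not. These averages describe the arrays and carry no test. How often averages over other groups of genes of these sizes separate was not tested, so the count of pathways has no background.

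**Figure D4:**
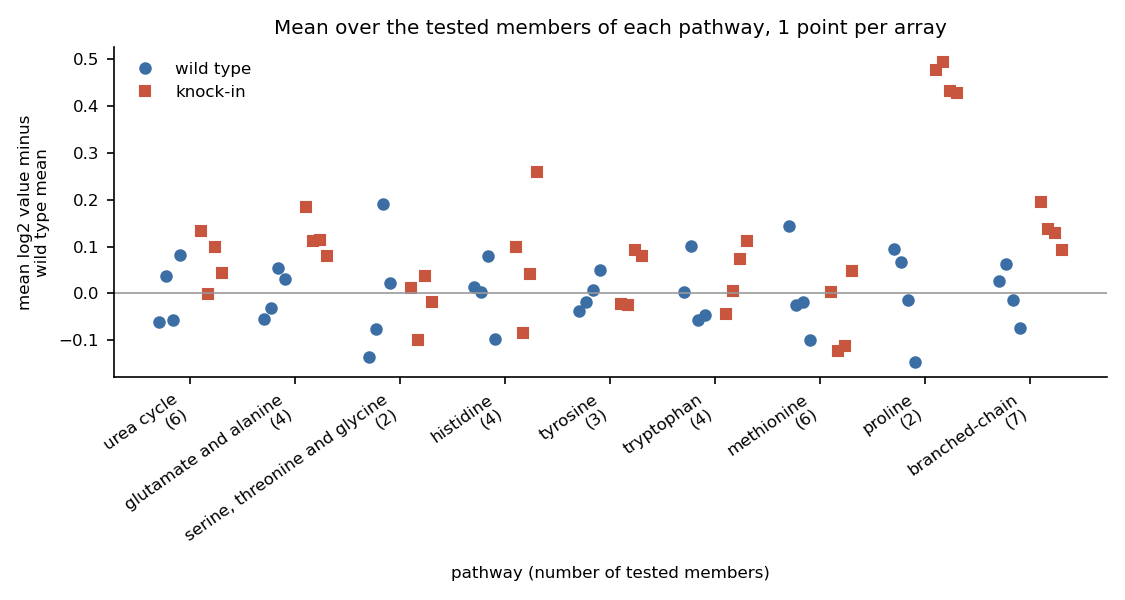
Mean over the tested members of each pathway on each array, minus the wild type mean (log2; circles wild type, squares knock-in). The squares lie above the circles without overlap for proline, branched-chain, and glutamate and alanine genes, and overlap with them in the other pathways.

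A wider list of 127 genes of amino acid metabolism, transport and its control was read in the same fit. Of these, 112 were tested, and 0 passed adjusted p under 0.05. At unadjusted p under 0.05, 17 were higher (15.2%, background 6.01%) and 4 lower (3.57%, background 5.29%). The groups did not overlap in 15 genes with the knock-in above (13.4%, background 3.96%) and in 3 with it below (2.68%, background 3.2%). Of the 21 genes at unadjusted p under 0.05, 20 were named by smallest p, at most 3 per list. The median difference was 0.09.

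Csad, which decarboxylates cysteine sulfinate on the way to taurine, had the largest difference of these genes. It read 9.43, 9.72, 9.91 and 10.04 in wild type and 8.74, 8.08, 8.12 and 8.92 in knock-in liver. Every knock-in array lay below every wild type array, and the difference was -1.31 (SE 0.22, 95% interval -1.80 to -0.82, limma adjusted p = 0.0729; 0.0365 to 0.225 over the alternatives). The methionine synthase Mtr was at 0.43 (SE 0.17, limma adjusted p = 0.377) and Ahcyl2, a relative of Ahcy, at 0.20 (SE 0.08, limma adjusted p = 0.348), both with groups that did not overlap.

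Of the 4 tested genes of the further proline list, 3 lay above 0 and 1 below. Among those above were Prodh2 and Hoga1, 2 enzymes of hydroxyproline breakdown, on the same side as Prodh. Prodh2, which oxidizes hydroxyproline, read 9.50, 9.23, 9.59 and 9.52 against 9.61, 9.69, 9.82 and 9.93, a difference of 0.31 (SE 0.11, limma adjusted p = 0.340). Hoga1, the mitochondrial aldolase at the end of that route, was at 0.23 (SE 0.08, limma adjusted p = 0.332), and neither gene's groups overlapped.

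In the tryptophan list, the kynurenine transaminases were opposed: Kyat1 was at 0.40 (SE 0.14) and Kyat3 at -0.37 (SE 0.10), each with groups that did not overlap. Afmid, the formamidase that follows Tdo2, was at 0.24 (SE 0.09). Aldh1l1 (also known as Fthfd), the formyltetrahydrofolate dehydrogenase, was at 0.29 (SE 0.08) and Hdc, which makes histamine, at 0.54 (SE 0.21), both from the histidine list. Agxt2, a mitochondrial glyoxylate transaminase, was at 0.27 (SE 0.10), and Glyat, which conjugates glycine, at -0.34 (SE 0.11). Mmab, which activates cobalamin, and the hydratase Echs1 from the branched-chain list were at 0.30 (SE 0.09) and 0.19 (SE 0.08), and the lysine gene Dhtkd1 at 0.26 (SE 0.11). Limma adjusted p for these 10 genes ran from 0.251 to 0.399.

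Among transporters, Slc43a1, which carries large neutral amino acids, read 5.96, 5.61, 5.87 and 5.75 in wild type and 6.32, 6.40, 6.76 and 6.66 in knock-in liver. The groups lay well apart, and the difference was 0.74 (SE 0.13, limma adjusted p = 0.0857; 0.0397 to 0.237 over the alternatives). Slc38a2, a sodium-coupled transporter of alanine and glutamine, was at 0.32 (SE 0.12, limma adjusted p = 0.355) and the glutamate transporter Slc1a2 at 0.24 (SE 0.09, limma adjusted p = 0.338). The mitochondrial glutamate carrier Slc25a22, the fourth transporter at unadjusted p under 0.05 and the only one of them lower, was at -0.43 (SE 0.17, limma adjusted p = 0.374); it fell outside the rule of 3 per list and was named after its value was seen. Of the 12 tested regulators, 8 lay above 0 and 4 below, the lowest at -0.29. At unadjusted p under 0.05, 2 were higher and 0 lower. Foxo1, a transcription factor held back by insulin, was at 0.56 (SE 0.11, limma adjusted p = 0.119, and 0.0308 to 0.280 over the alternatives). Klf15, known for driving amino acid catabolism genes in liver, was at 0.35 (SE 0.13, limma adjusted p = 0.346). The part of these regulators in the differences of the enzymes was not tested.

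**Figure D5:**
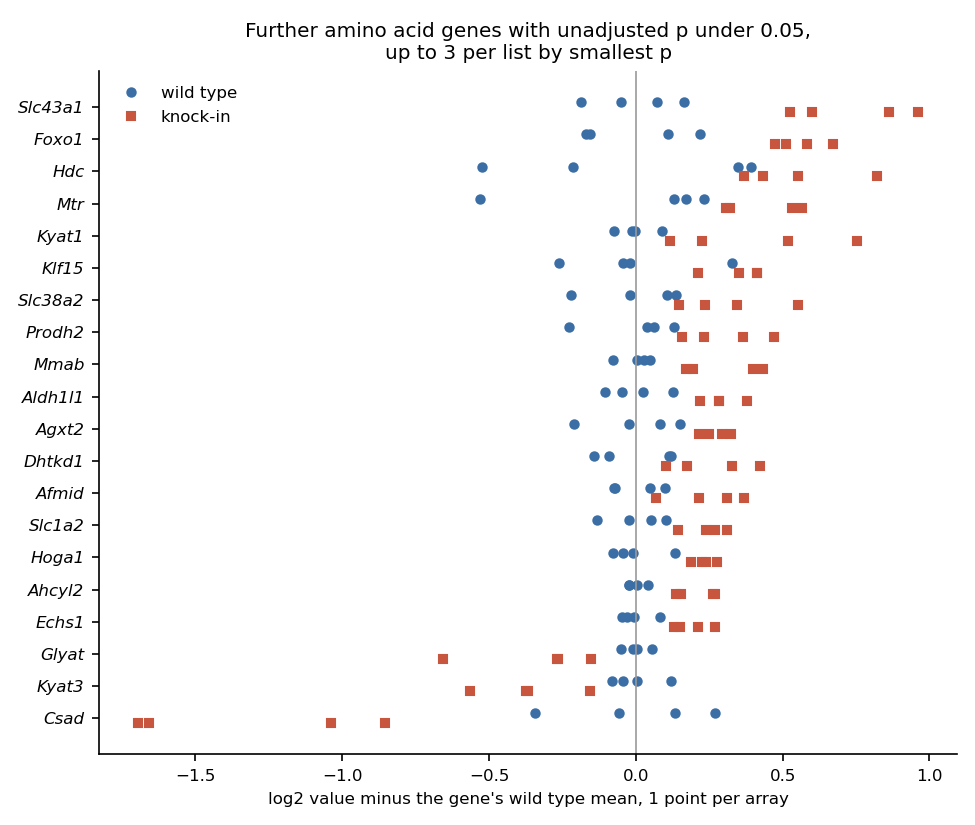
Log2 value minus the gene's wild type mean on each array for the 20 further genes named, which had an unadjusted p under 0.05 (at most 3 per list, by smallest p). The knock-in arrays lie lowest for Csad, on average at -1.31, and highest for Slc43a1, at 0.74.

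Markers of hepatocytes averaged similar levels in both genotypes, but several lay close to the highest value on the arrays. Alb, among them, read 13.60 ± 0.05 and 13.63 ± 0.04 where that value was 13.66, and a difference may not show there. The mean of 9 tested markers was 12.25 to 12.31 on wild type and 12.25 to 12.33 on knock-in arrays, and 1 of them, Serpina1a at -0.35 (SE 0.13), had an unadjusted p under 0.05. The listed markers of Kupffer cells averaged 8.03 to 8.95 and 7.94 to 8.66, those of sinusoidal endothelium 8.81 to 8.90 and 8.88 to 9.01, those of stellate cells 6.38 to 7.15 and 6.54 to 7.21, and those of cholangiocytes 4.54 to 4.90 and 4.56 to 5.05. Those of T, NK and B cells averaged 4.69 to 5.36 and 4.90 to 5.24, and those of neutrophils and monocytes 4.93 to 5.06 and 4.51 to 5.19, with S100a8, S100a9 and Ly6g under the dim limit. Of 6 tested endothelial markers only Lyve1, at 0.73 (SE 0.23), had an unadjusted p under 0.05, and 0 of 6 Kupffer cell, 0 of 6 stellate, 0 of 4 cholangiocyte, 0 of 5 lymphocyte and 0 of 3 neutrophil and monocyte markers did. Many urea cycle and amino acid enzymes are richest in the periportal zone of the lobule. Of 8 periportal markers, 1 was lower at unadjusted p under 0.05, Ctsc at -0.30 (SE 0.10), and the list averaged 11.16 to 11.26 and 11.13 to 11.25. Of 10 pericentral markers 2 were higher at that level (Rhbg at 0.53, SE 0.20, and Slc1a2) and 2 lower (Tbx3 at -0.82, SE 0.27, and Axin2 at -0.62, SE 0.26), and the list averaged 9.66 to 9.90 and 9.60 to 9.87. Their part in the differences above was not tested.

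To show the DNA in front in front of the members with the smallest p values, the 150 bases before the annotated gene start were read from RefSeq (GRCm38.p6). Of the 7 members at unadjusted p under 0.05, 4 had such a window: Prodh (chr16:18089284-18089433, minus strand), Shmt1 (chr11:60811266-60811415, minus strand), Bckdha (chr7:25658783-25658932, minus strand) and Uroc1 (chr6:90333089-90333238, plus strand). Each is printed 5′ to 3′ on the gene's strand, and capitals mark a match on either strand to CACCC (the core read by Krüppel-like factors such as Klf15), CACGTG (the E-box), TGACG (the core read by CREB and ATF factors) or CCAAT.
Prodh: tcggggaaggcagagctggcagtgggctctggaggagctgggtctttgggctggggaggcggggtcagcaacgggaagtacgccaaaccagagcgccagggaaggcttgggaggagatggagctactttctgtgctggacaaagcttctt
Shmt1: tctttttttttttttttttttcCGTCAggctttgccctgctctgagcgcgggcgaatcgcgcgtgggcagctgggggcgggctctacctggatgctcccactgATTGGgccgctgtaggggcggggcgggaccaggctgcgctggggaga
Bckdha: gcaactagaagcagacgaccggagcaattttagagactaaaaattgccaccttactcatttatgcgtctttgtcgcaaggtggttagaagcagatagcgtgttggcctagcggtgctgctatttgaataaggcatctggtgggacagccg
Uroc1: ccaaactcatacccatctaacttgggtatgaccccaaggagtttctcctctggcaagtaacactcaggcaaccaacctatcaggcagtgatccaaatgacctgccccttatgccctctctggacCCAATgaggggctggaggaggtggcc

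The window of Shmt1 held 1 TGACG and 1 CCAAT match, that of Uroc1 1 CCAAT match, and those of Prodh and Bckdha 0 matches to any of these letters. Over all 22803 gene windows of this length, 35.8% held CACCC, 4.06% CACGTG, 12.6% TGACG and 25.7% CCAAT. Of the 27 members with a window, 13 held CACCC, 1 CACGTG, 2 TGACG and 12 CCAAT. A match describes letters and not binding, and no motif among those searched was present in all 4 windows printed.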

How the data were processed

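Liver RNA of 8 samples was measured on Affymetrix whole-transcript arrays. The deposited values are log2 expression per probe set; the submitters' processing notes name RMA and limma without versions, and the sources used here do not give the annotation build. RMA equalizes the arrays' distributions, so a shift shared by most genes would be removed. Of 41345 probe sets, 23521 had 1 gene symbol, 1814 had several and 16010 had none listed. Genes above the 40th percentile of the array in at least 4 of 8 arrays were tested (13449; 8731 were dim) with limma 3.58.1 under R 4.3.3 (lmFit with eBayes, a two-sided test of genotype alone, Benjamini-Hochberg adjustment over these genes). The method was tested on simulated data with normal noise and shifts larger than the difference of any member. That test therefore does not show how well differences of the members' sizes are detected. Differences are knock-in minus wild type with the model's standard error (SE); group values are mean ± SD. The labels do not state that each array is a separate animal, so the spread behind the p-values may be technical. All 41 members, and the further genes at unadjusted p under 0.05 (at most 3 per list), are named; members and lists were chosen with earlier results of these data known. Alternatives were 2 filters, a further quantile normalization, a trended and robust prior, array weights, the mean of probe sets, the replicate number as a block, and leaving out each array.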

Additional observations from a re-analysis of the deposited data

Results flagged for a closer look

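In 4 of 116 groups of 4 arrays examined (the members and the further named genes), 1 array lay far from the other 3, by Dixon's criterion, which chance meets in about 1 in 20 groups. Cps1 read 13.06 on knock-in replicate 2, where the other knock-in arrays read 13.13 to 13.14. Gpt2 read 11.33 on knock-in replicate 4, against 11.56 to 11.60. Bcat2 read 6.42 on wild type replicate 4, against 6.85 to 6.93. Mtr read 5.83 on wild type replicate 3, against 6.49 to 6.59.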

How the results depend on the processing

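Of the 38 members, 29 kept their sign under each of the 15 alternatives, among them Gpt, Prodh, Shmt1, Uroc1, Haao, Bckdha and Kynu. The count of members past the threshold, 0, was 1 with the stricter filter (Gpt) and 2 with the trended and robust prior (Gpt and Prodh). That of the further genes, 0, was 2, 3 and 1 with the stricter filter, that prior and averaged probe sets. Over all genes the count of 9 was 2 with no filter, 32 with the stricter filter, 73 with the trended and robust prior, 25 with array weights, 24 when probe sets were averaged, 2 with the replicate block and 1 to 12 without 1 array. Members at unadjusted p under 0.05 were 16 with the trended and robust prior (42.1%, where all genes gave 12.2%), 4 with the replicate block (10.5% against 9.78%) and 4 to 8 without 1 array, with 4 without wild type replicate 4 (10.5% against 10.3%). Same-numbered arrays of the 2 genotypes had correlations of deviations of -0.11 to 0.10. With 4 arrays a group and no reference value, these cannot settle whether the arrays are paired. Members without overlap were 8 to 14 without 1 array, with 14 without knock-in replicate 4 (all genes 12.1%, against 7.16% with all arrays). The members' median ran from 0.0545 to 0.110 and that of the methionine genes from -0.0854 to 0.0627, above 0 without wild type replicate 1 and without knock-in replicate 3. Ahcy was at -0.0272 with the mean of its probe sets. Without 1 array, Ass1 ran from -0.0017 to 0.409, Hal from -0.193 to 0.0340, Amdhd1 from -0.129 to 0.0329, Kmo from -0.0250 to 0.0545, Mat1a from -0.0286 to 0.0149, Ahcy from -0.0423 to 0.116, Bhmt from -0.197 to 0.110, Bcat2 from -0.0529 to 0.117, Ivd from -0.0130 to 0.107 and Tm6sf2 from -0.159 to 0.0644. The cause of these shifts was not tested. With 4 arrays a group, SEs of the members were 0.07 to 0.26.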
